A study of Mus musculus with 4 samples.

Results

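Group 2 innate lymphoid cells (ILC2) were taken from a single-cell RNA-seq atlas of collecting lymphatic vessels and adjoining tissue of the mouse. A cell barcode was a member when it passed a filter on quality (500 or more gene UMIs, 300 or more genes, and less than 15% of UMIs mitochondrial) and its raw UMI counts met a gate. UMIs, unique molecular identifiers, count captured RNA molecules. The gate asked for at least 1 UMI of Ptprc (the pan-leukocyte antigen CD45), at least 1 of Gata3, and at least 2 in the sum of Il1rl1, Areg and Il7r. It allowed at most 1 UMI over Cd3e, Cd3d and Cd3g, none of Trac, Cpa3, Ncr1 or Cd79a, at most 1 of C1qa and at most 2 of Col1a1. It found 262 of the 23666 barcodes that passed the filter, a share of 1.11% (Clopper-Pearson 95% interval 0.978 to 1.25). The members were thus chosen by measured UMI counts, and the 14 genes of the gate are given as a description and support nothing.

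The tissue came from C57BL/6J mice of both sexes, 4 male and 4 female, at 12 to 14 weeks of age. They received no treatment that the labels name. Vessels of 4 regions (superficial cervical, mesenteric, inguinal-axillary, and popliteal afferent or saphenous) were combined for each mouse and dissociated at 37 °C with papain, collagenase A and dispase II. Males and females each gave 1 pooled gene expression library and 1 library of multiplexing tags. The deposited matrix holds all barcodes together under 8 barcode suffixes, and no label ties a suffix to a mouse or a sex. The matrix was therefore treated as 1 pooled sample: no test was made, sexes were not compared, and intervals cover counting error only. Suffixes are given as unlabelled samples, by the lowest, median and highest of the 8.

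ILC2 are lymphocytes of the innate arm. They carry no rearranged antigen receptor, depend on the transcription factors GATA3 and RORα, and sit in barrier and adventitial tissues. They respond to the alarmins IL-33, IL-25 and TSLP and to IL-2 family cytokines, and they secrete IL-5, IL-13, GM-CSF and the epidermal growth factor family ligand amphiregulin. Around vessels they are known to lie near fibroblasts that make IL-33. T helper 2 cells share much of this program, so T cells were the nearest reference.

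Summed over the members there were 1949449 gene UMIs; the median barcode had 5516.5 UMIs from 1981 genes. The reference of T cells was gated on at least 2 UMIs over Cd3e, Cd3d and Cd3g and held 328 barcodes with 1916596 UMIs and a median of 4881 UMIs. Natural killer (NK) cells, gated on Ncr1, numbered 68, and B cells, gated on Cd79a, numbered 247 with a median of 5077 UMIs. All other barcodes numbered 23404. A level below is the summed UMIs of a gene as counts per 1000000 gene UMIs of the set (CPM), and levels are compared between sets of barcodes, never between genes.

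Most but not all of the members lay together when all barcodes were clustered. Graph clustering of all filtered barcodes gave 27 clusters, and 239 of the 262 members (91.2%) lay in 1 of them. That cluster of 403 barcodes was led, among others, by Il5, Camk4, Dach2, Il2ra, Calca, Cxcr6, Il1rl1, Inpp4b and Csf2, and is called the ILC2-like cluster here. The other 23 members (8.78%) were spread over 8 clusters and had a median of 16961 UMIs, against 5307 for the 239. They made up 31.5% of all UMIs of the members. A group of 8 of them lay in a cluster led by the epithelial genes Wfdc2, Prlr, Epcam, Krt18 and Krt8. Each of these 8 had exactly 1 Ptprc UMI, and together they held 18.6% of the members' UMIs. A sum over 8 epithelial genes was 3982 CPM in the 262, 56.1 CPM in the 239 and 54.2 CPM in B cells. Doublet calling marked 4 of the 262 members, all of them among the 23.

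**Figure D1:**
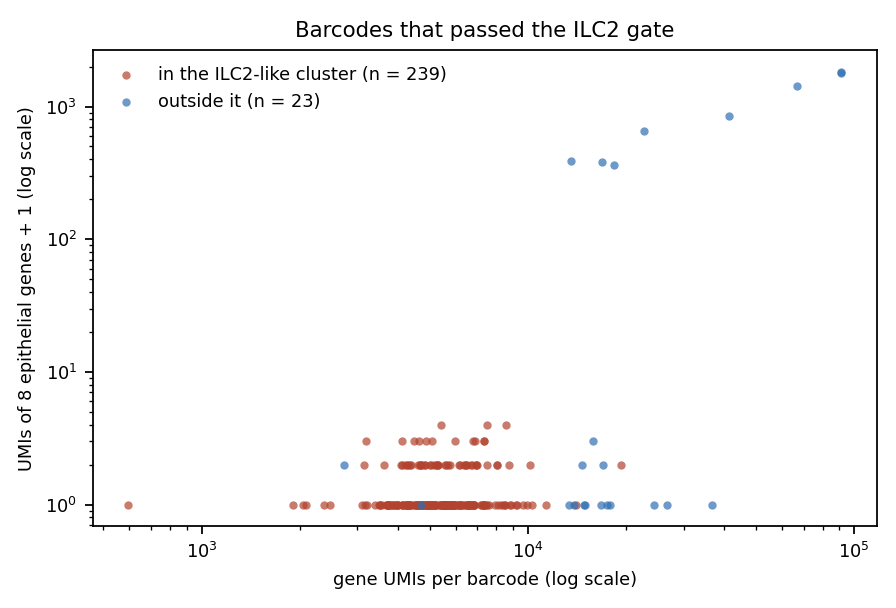
Each point is a member, placed by its gene UMIs (x, log scale) and its summed UMIs of 8 epithelial genes plus 1 (y, log scale), in red for the 239 in the ILC2-like cluster and blue for the 23 outside it. The 8 blue points at the upper right are the members in the keratin-led cluster, and all 239 red points stay at the bottom.

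The T cell reference was mixed in the opposite sense. Of its 328 barcodes, 56 lay in the ILC2-like cluster. Cd3g was found in 94.6% of those 56 but Cd3e in 16.1%, Cd3d in 12.5% and Trac in 8.93%. The 272 T-gated barcodes outside the cluster had Cd3e in 84.2%, Cd3d in 92.6%, Cd3g in 93.0% and Trac in 64.7%. Among the 239 members in the cluster, Cd3g was found in 24, Cd3d in 1, and Cd3e and Trac in none. The main comparison was of all 262 members with all 328 T-gated barcodes. Levels in the 239 and the 272 are given as well, a restriction chosen after the data were seen. The clustering used the genes described below, the gate genes among them, so the order and the separation of the restricted sets, in each suffix too, follow in part from the restriction and are no support for a difference or for the name. Where ranges over suffixes are said below not to overlap, they are those of the 239 and the 272. By suffix the 239 numbered 13 to 43 and the 272 numbered 8 to 82, so some of these levels rest on few barcodes. In the 262 and the 328 the ranges of Il5, Csf2, Calca, Il2ra, Klrg1, Rora, Pparg and Cxcr6 overlapped. Those of Arg1 and Ifngr1 did not. The share of all genes without overlap is not given.

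The gate's own genes had the following levels. GATA3, the factor that ILC2 and T helper 2 cells share, stood at 1044 CPM (999 to 1090.2) in the 262. Il1rl1, which encodes the IL-33 receptor ST2, stood at 868 CPM (828 to 911). Areg, which encodes amphiregulin, stood at 1298 CPM (1248 to 1349), and Il7r, the IL-7 receptor, at 523 CPM (491 to 556). Il1rl1 was at 863 CPM in the 76 barcodes of a mast cell gate as well, and 15.3 CPM in all other barcodes.

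The sum over Il1rl1, Areg and Il7r was well above its threshold of 2 in most members. Barcodes with a sum of exactly 2 numbered 6, of which 2 lay in the ILC2-like cluster, and those with a sum of 5 or more numbered 246, of which 229 did (93.1%). Just outside, 2 barcodes had a sum of 1 and none of them lay in the cluster. At the Gata3 threshold, 17 members had 1 Gata3 UMI and 14 of these lay in the cluster, whereas 424 barcodes met every other condition with no Gata3 UMI and 11 of these did (2.59%). At the Cd3 threshold, 26 members had 1 UMI and 25 lay in the cluster, and of 19 barcodes with 2 UMIs just outside it, 17 did. The cluster thus held most barcodes on both sides of the Cd3 threshold, and few of those just outside the Gata3 threshold.

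Il5 and Il13, the leading type 2 cytokines, were higher in the members than in T cells. Il5, which encodes the growth factor of eosinophils, stood at 1070.4 CPM in the 239 (suffixes 314, 888 and 1733) and at 3.21 CPM in the 272 T cells (0, 0 and 25.3), and the 2 ranges did not overlap. Over all members it was 756 CPM (717 to 795) against 195 CPM in the 328, a ratio of 3.88 (3.46 to 4.36). Restricted, the ratio was 334 (143 to 1030.1). Of the 373 Il5 UMIs in the T gate, 5 lay outside the ILC2-like cluster. Il13, which drives mucus, smooth muscle and alternative macrophage responses, was at 548 CPM in the 239 (101, 466 and 1019) and 17.9 CPM in the 272 (0, 0 and 136). The higher of the T cell suffixes reached into the range of the members. Il13 over all members was 440.1 CPM (411 to 471), 4.30-fold (3.68 to 5.05) the level of the T gate, and 30.5-fold (20.9 to 46.3) after restriction. The mast cell gate held Il13 at 656 CPM. Il4 had the smallest ratio of the 3: 52.8 CPM against 36.0 CPM in all members and T cells, under 2-fold, and 70.4 CPM against 3.21 CPM after restriction. Its direction over all members rested on 1 suffix: the log2 ratio was 0.55, and -0.40 without suffix 8 and 2.07 without suffix 3.

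These genes neighbour each other in the genome. In GENCODE M21 on build GRCm38, Il4 (chr11:53602982-53618669, minus strand), Il13 (chr11:53631324-53634702, minus) and Il5 (chr11:53720794-53725106, plus) span 122 kb, with Rad50 (chr11:53649519-53707319, minus) between Il13 and Il5. Csf2 (chr11:54247271-54249667, minus), which encodes GM-CSF, lies 522 kb past Il5. The ubiquitous neighbour Rad50, a DNA repair gene, was 1.87-fold higher in the 262 than in all T cells, at 208 CPM in the 239 and 63.5 CPM in the 272, and Irf1 (chr11:53770014-53778374, plus), an interferon-response factor, was 209 and 179 CPM. Il3 (chr11:54265303-54267277, minus), next to Csf2, had no UMI in either set.

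The sequences before the starts of Il5, Il13, Csf2 and the gate gene Il1rl1 are shown because GATA3 is the factor that the gate asked for and these are the genes it is known to regulate. Each is the 250 bases before the gene's start from RefSeq on GRCm38.p6, 5′ to 3′ along the gene. Capitals mark GATA-factor letters: the letters AGATAA, the letters AGATAG, the letters TGATAA and also the letters TGATAG, on either strand. The windows are chr11:53720544-53720793 (plus) for Il5, chr11:53634703-53634952 (minus) for Il13, chr11:54249900-54250149 (minus) for Csf2 and chr1:40429320-40429569 (plus), the first of 2 starts, for Il1rl1.
Il5: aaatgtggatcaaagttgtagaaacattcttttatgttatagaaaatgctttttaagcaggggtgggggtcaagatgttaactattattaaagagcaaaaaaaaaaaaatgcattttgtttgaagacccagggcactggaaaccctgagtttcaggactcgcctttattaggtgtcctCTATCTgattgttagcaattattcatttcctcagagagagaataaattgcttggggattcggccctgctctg
Il13: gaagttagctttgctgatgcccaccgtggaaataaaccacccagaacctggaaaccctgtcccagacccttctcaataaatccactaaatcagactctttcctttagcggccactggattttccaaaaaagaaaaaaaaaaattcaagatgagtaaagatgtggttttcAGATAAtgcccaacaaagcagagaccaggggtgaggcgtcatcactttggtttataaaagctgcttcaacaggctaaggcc
Csf2: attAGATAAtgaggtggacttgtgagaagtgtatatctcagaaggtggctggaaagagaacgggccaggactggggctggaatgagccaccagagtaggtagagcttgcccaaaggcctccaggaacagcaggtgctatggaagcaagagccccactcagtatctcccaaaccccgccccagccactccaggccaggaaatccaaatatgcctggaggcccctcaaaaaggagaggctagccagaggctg
Il1rl1: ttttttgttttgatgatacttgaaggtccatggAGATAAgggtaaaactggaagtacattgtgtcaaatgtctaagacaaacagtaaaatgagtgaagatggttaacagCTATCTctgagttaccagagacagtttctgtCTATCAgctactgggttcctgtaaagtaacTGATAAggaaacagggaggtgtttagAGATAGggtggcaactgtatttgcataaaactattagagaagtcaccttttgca

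Il5 held 1 match, 72 bases before the start and on the reverse strand, Il13 held 1 at 81 bases, and Csf2 held 1 at 247 bases. The RefSeq start used for Csf2 lies upstream of its GENCODE M21 start at chr11:54249667. Its match is therefore more than 247 bases before the GENCODE start, and the bases just before that start were not searched. The first Il1rl1 window held 5 matches, at 217, 141, 110, 80 and 54 bases, and the window before its second start held 1. Csf2 was not among the genes first planned for this search. The Areg window, which was planned, held none and is not printed, so every window shown holds a match. Of 32851 such windows in the table, 26.5% held at least 1 match, 6.40% at least 2 and 0.0426% at least 5. A match is a stretch of letters and not a measured binding site. Icos and Klrg1 were not in the table.

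Several other secreted products were higher in the members too. Csf2 was at 632 CPM in the 239 (314, 527 and 1049) and 15.4 CPM in the 272 (0, 0.960 and 106), with no overlap. Its ratio was 3.60 (3.13 to 4.16) over all members and T cells and 41.1 (27.4 to 64.5) after restriction, and without suffix 3 the log2 ratio over all members was 2.48 in place of 1.85. By suffix, Csf2 ran from 214 to 713 CPM in the 262 and from 52.2 to 418 CPM in the 328, which overlapped. Calca, the gene of the neuropeptide CGRP and of calcitonin, was at 842 CPM (464, 754 and 1574) against 17.9 CPM (0, 21.7 and 78.5), with no overlap in these restricted sets. Its ratio was 6.15 (5.27 to 7.21) over all members and 46.9 (32.3 to 70.9) after restriction. Ccl1, a chemokine that binds CCR8, was at 224 CPM (22.4, 177 and 765) against 0.641 CPM, a single UMI, and over all members and T cells the ratio was 2.72 (2.18 to 3.42). Lif, an IL-6 family cytokine, was at 74.1 CPM (38.2, 73.1 and 103) and had no UMI in the 272, so that it was at least 38.5-fold higher, counting the floor as 3 UMIs over the set. Over all members and T cells the Lif ratio was 9.03 (5.38 to 16.2), with a log2 of 3.18, or 2.56 without suffix 4. Tgfb1 was at 398 CPM in the 262 against 215 CPM in all T cells. In the restricted sets Cxcl2, a neutrophil chemoattractant, was at 1251 CPM against 113 CPM, and over all members and T cells the ratio was 2.68. Cxcl2 was also high in all other barcodes, at 1359 CPM.

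Cytokines of the other lineages were missing or low. Ifng, Il17a, Il22 and Il10 had no UMI in the 262, which allows up to 1.54 CPM. T cells held Ifng at 47.5 CPM, at least 30.9-fold higher, and Il17a at 11.0 CPM. With the members put at the floor, the log2 ratio of Il17a was -2.83, or -1.10 without suffix 2. Il9, a cytokine that ILC2 can make, and Il3 had no UMI in members or T cells. Ccl5, a chemokine of cytotoxic cells, was at 56.4 CPM in the members and 1373 CPM in T cells, 24.3-fold lower (20.1 to 29.7), and 39.2-fold lower (30.1 to 51.9) after restriction. Without suffix 5 Ccl5 was at 27.0 CPM in the members, and its log2 ratio was -5.70 in place of -4.60. Xcl1 was 18.8-fold lower in the 262 than in all T cells; it had no UMI in the 239 and stood at 71.2 CPM in the 272.

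Over the list of secreted products, 21 of 26 genes reached 10 CPM in either set. Of these 11 were at least 2-fold higher in the 262 and 4 at least 2-fold lower, with a median log2 ratio of 1.40. Over all 9245 genes at that level, 14.9% were at least 2-fold higher, 10.0% at least 2-fold lower, and the median was -0.06. After restriction 12 were higher and 6 lower with a median of 1.62, where over all 8700 genes 8.49% were higher, 21.9% lower and the median was -0.36. Fewer RNA molecules per cell and fewer cells of a kind cannot be told apart in such sums. The list was chosen with earlier results of these data known.

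**Figure D2:**
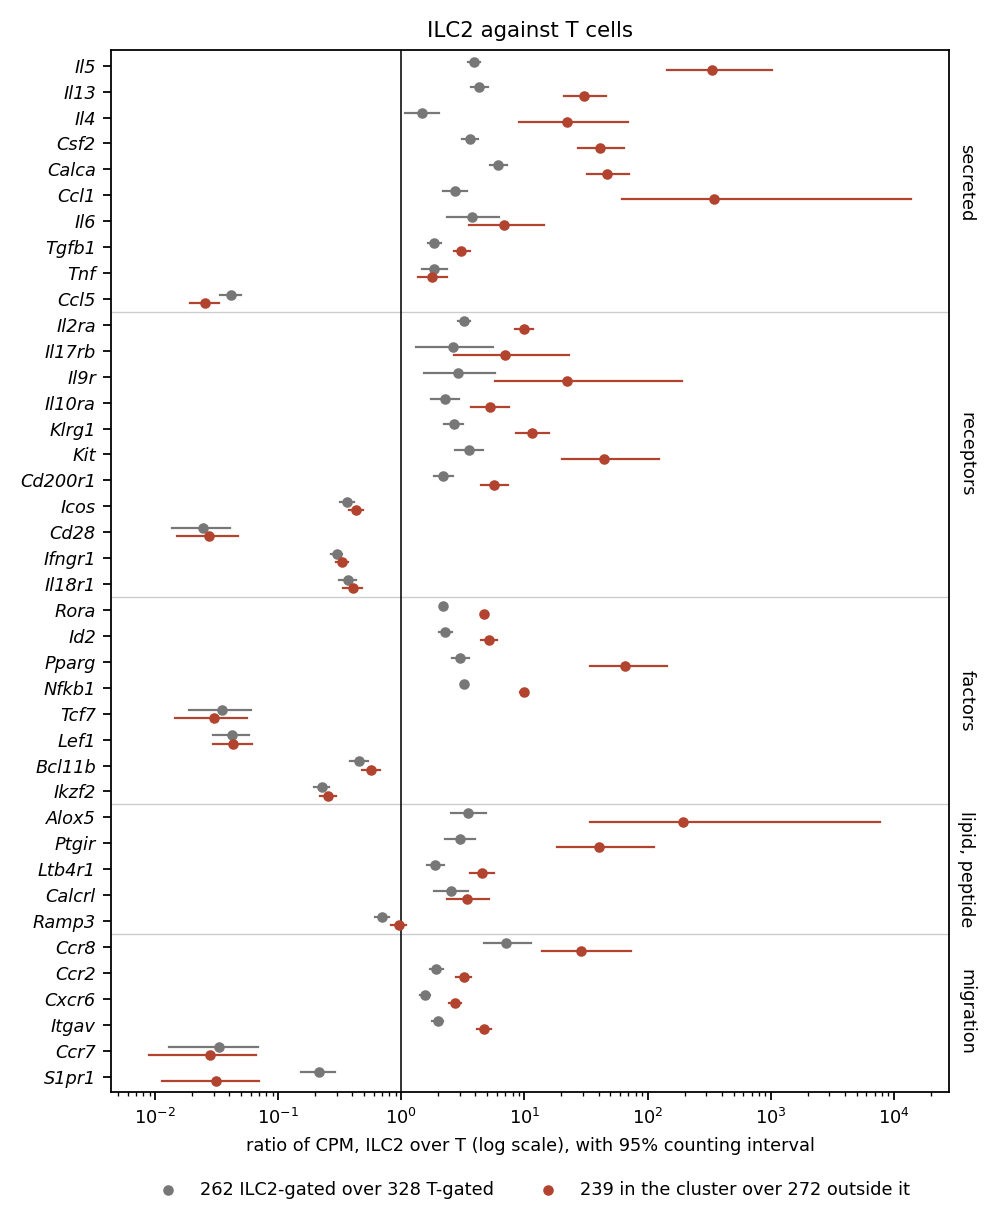
Ratios of CPM, ILC2 over T (x, log scale), with 95% counting intervals for genes of 5 lists (y), in grey for the 262 against the 328 and in red for the 239 against the 272. The restriction moves the type 2 genes to the right, Il5 from 3.88 to 334, while Ccl5, Cd28, Tcf7, Lef1 and Ccr7 stay left of 1 in both.

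Receptors for activating cytokines were split. Il2ra, the high-affinity subunit of the IL-2 receptor, was at 924 CPM in the 239 (649.9, 954 and 1075) and 93.6 CPM in the 272 (23.7, 67.7 and 334), with no overlap. The ratio was 3.21 (2.86 to 3.60) over all members and T cells and 9.88 (8.31 to 11.8) after restriction. Il17rb, the IL-25 receptor, was low in both sets, at 22.5 CPM against 3.21 CPM. Il9r was at 28.4 CPM against 1.28 CPM and Il10ra at 134 CPM against 25.6 CPM. Over all members and T cells the ratios were 2.62 for Il17rb, 2.88 for Il9r and 2.26 for Il10ra, and the log2 ratio of Il17rb was 1.39, or 0.80 without suffix 8. Crlf2, the receptor of TSLP, was at 46.7 CPM in the 262 and 52.7 CPM in T cells, and the interval of the ratio of T cells over members, 0.842 to 1.52, took in 1. The IL-18 receptor Il18r1, the interferon-γ receptor Ifngr1 and the TNF receptor Tnfrsf1b were lower in the members. Ifngr1 was at 305 CPM in the 239 (224, 287 and 392) against 927 CPM in the 272 (639.7, 922 and 1144), with no overlap, and 3.34-fold lower (3.01 to 3.71) over all members and T cells. Receptors of other lineages were at or near 0: Il23r had 2 UMIs in the 262 against 165 CPM in T cells, and Il12rb2 had 4 against 169 CPM. Of 20 receptors at 10 CPM or more, 5 were at least 2-fold higher and 7 at least 2-fold lower, beside 14.9% and 10.0% over all genes. The median log2 ratio was -0.23.

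Among costimulatory and inhibitory receptors, Klrg1, an inhibitory lectin that marks mature ILC2, was at 347 CPM in the 239 (261, 329 and 438) and 30.1 CPM in the 272 (0, 30.5 and 53.9). The ranges did not overlap. The ratio was 2.66 (2.24 to 3.18) over all members and T cells and 11.5 (8.53 to 15.9) after restriction. Kit, the stem cell factor receptor, was at 171 CPM against 3.85 CPM, and its ratio over all members and T cells was 3.52 (2.73 to 4.60). Cd200r1, an inhibitory receptor, had a ratio of 2.19 over all members and T cells and 5.64 after restriction. Tnfrsf18, which encodes GITR, was at 493 CPM against 197 CPM in the restricted sets, but under 2-fold apart, at 1.43, over all members and T cells. Icos, often used to identify ILC2, went the other way: 156 CPM in the 262 against 434 CPM in T cells, 2.77-fold lower (2.43 to 3.17), and 2.34-fold lower after restriction. By suffix, the 262 were below T cells except in suffix 5, at 238 CPM against 78.4 CPM. After restriction the order was reversed in suffixes 1 and 5. Cd28 was at 10.5 CPM in the 239 (0, 11.7 and 20.5) against 379 CPM in the 272 (284, 357 and 566), and 40.8-fold lower (24.5 to 73.3) over all members and T cells. Ctla4 and Tnfrsf4, which encodes OX40, were also lower, at 11.8 CPM against 248 CPM and 14.9 CPM against 188 CPM in all members and T cells. Without suffix 4 the log2 ratio was -5.33 in place of -4.39 for Ctla4 and -5.05 in place of -3.66 for Tnfrsf4. In this list of 16 genes at 10 CPM or more, 5 were at least 2-fold higher and 6 at least 2-fold lower, with a median of -0.46. The shares over all genes were 14.9% and 10.0%.

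Among lineage transcription factors, Rora, Id2, Nfkb1 and Pparg were higher in the members, and Tcf7, Lef1 and Bcl11b were lower. Rora, which ILC2 need for their development, was at 3320.5 CPM in the 239 (2865, 3385 and 3797) and 703 CPM in the 272 (237, 677 and 946). Id2, a repressor that all innate lymphoid cells use, was at 683 CPM against 133 CPM. Nfkb1 was at 6111 CPM (4968, 6388 and 7792) against 621 CPM (355, 649 and 883), a ratio of 9.85 (9.21 to 10.5). Pparg, a nuclear receptor of lipid metabolism, was at 377 CPM (239, 381 and 803) against 5.77 CPM (0, 0 and 27.0). None of the ranges given overlapped. With all members and T cells included the ratios were 2.20 (2.09 to 2.32) for Rora, 2.28 (2.03 to 2.56) for Id2, 3.22 (3.08 to 3.36) for Nfkb1 and 3.02 (2.57 to 3.56) for Pparg. In the opposite direction, Tcf7 and Lef1, factors of naive and memory T cells, were at 7.18 CPM against 205 CPM and 19.0 CPM against 453 CPM in all members and T cells. Bcl11b, a factor of T cells that ILC2 also use, was at 148 CPM in the 239 and 260.3 CPM in the 272, and 2.20-fold lower (1.87 to 2.59) over all members and T cells.

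Factors that define several other helper and innate subsets were all but absent. Tbx21 had 3 UMIs in the 262, Eomes 2 and Foxp3 none, and the 239 had none of the 3. T cells held Tbx21 at 86.1 CPM and Foxp3 at 28.7 CPM. Of 25 lineage factors at 10 CPM or more, 7 were at least 2-fold higher and 9 lower in the 262, beside 14.9% and 10.0% over all genes. The median log2 ratio was -0.28.

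Receptors for lipid mediators and neuropeptides leaned towards the members. Ptgir, the prostacyclin receptor, was at 156 CPM in the 239 (106, 149 and 205) and 3.85 CPM in the 272 (0, 0.960 and 9.52). Ltb4r1, the leukotriene B4 receptor, was at 307 CPM (202, 299 and 348) against 67.9 CPM (0, 66.4 and 154). Alox5, the enzyme that starts leukotriene synthesis, was at 124 CPM (51.0, 123 and 171) against a single UMI. None of the 3 overlapped between the sets. The 262 against the 328 gave ratios of 2.99 (2.28 to 3.97) for Ptgir, 1.89 for Ltb4r1 and 3.49 (2.53 to 4.90) for Alox5. Calcrl, a subunit of the receptors for CGRP and adrenomedullin, was at 74.9 CPM in the 262 and 29.7 CPM in T cells, a log2 ratio of 1.33, or 1.97 without suffix 3. Its partner Ramp1 was at 187 and 193 CPM, and Ramp3 at 199 and 286 CPM. The ligand Calca and the receptor subunits Calcrl and Ramp1 were thus all measured in the members. Nmur1, the neuromedin U receptor, had 2 UMIs in the 262 and Ptgdr2, the prostaglandin D2 receptor CRTH2, had none; both were named after their values were seen. Of 17 genes of this list at 10 CPM or more, 7 were at least 2-fold higher and 1 lower, beside 14.9% and 10.0% over all genes. The median log2 ratio was 0.82.

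Genes of migration and tissue retention differed in both directions. Ccr8 was at 130.2 CPM in the 239 (71.4, 137 and 182) and 4.49 CPM in the 272 (0, 0 and 47.4), Cxcr6 at 829 CPM (582, 813 and 1032) against 303 CPM (0, 287 and 550.2), and Ccr2 at 550.2 CPM (358, 543 and 956) against 172 CPM (71.1, 180.3 and 352). None of the 3 ranges overlapped. In the 262 against the 328 Ccr8 was 7.12-fold higher (4.67 to 11.3), while Cxcr6 and Ccr2 were under 2-fold apart, at 1.55 and 1.93. Itgav, an integrin subunit, was at 833 CPM against 179 CPM, and Cd69, which holds lymphocytes in tissue, at 308 CPM against 119.9 CPM, and over all members and T cells their ratios were 1.97 and 1.64. Ccr7, which guides cells to lymph nodes, was at 3.59 CPM in the 262 and 109.6 CPM in T cells. S1pr1, the receptor for exit from tissue, was at 4.49 CPM in the 239 (0, 3.42 and 12.7) and 144 CPM in the 272 (111, 165 and 308). Over all members and T cells S1pr1 was 4.69-fold lower (3.43 to 6.53), with a log2 ratio of -2.23, or -3.05 without suffix 4. Over this list 2 of 23 genes were at least 2-fold higher and 6 at least 2-fold lower in the 262, with a median of -0.43, beside 14.9% higher and 10.0% lower over all genes. After restriction 7 of 22 were higher and 8 lower, beside 8.49% and 21.9%.

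In the metabolic list, Arg1 and amino acid uptake stood out. Arg1, arginase 1, was at 413 CPM in the 239 (191, 323 and 597) and 3.85 CPM in the 272 (0, 0 and 20.2), without overlap. Its ratio was 3.51 (2.96 to 4.19) over all members and T cells and 107 (49.0 to 294) after restriction. Slc7a8, a transporter of large neutral amino acids, was at 158 CPM (56.0, 164 and 268) against 1.28 CPM. Dgat1, which makes triglycerides, was at 746 CPM against 297 CPM. Unrestricted, the ratios were 3.82 (2.86 to 5.17) for Slc7a8 and 1.42 for Dgat1. Nt5e, the ectoenzyme CD73, was the reverse, at 12.8 CPM in the 262 against 86.6 CPM in T cells, a log2 ratio of -2.76, or -4.01 without suffix 6. Of 16 genes at 10 CPM or more, 5 were at least 2-fold higher and 2 lower, beside 14.9% and 10.0% over all genes. The median log2 ratio was 0.48.

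Of the feedback regulators of NF-κB and cytokine signalling, Nfkbia, Nfkbiz and Cish were at least 2-fold higher in the members. Nfkbia was at 2966 CPM in the 239 (1962, 3042 and 3449) against 659 CPM in the 272 (284, 594 and 1152). Tnfaip3 was at 844 CPM against 332 CPM, Nfkbiz at 668 CPM against 151 CPM and Cish, an inhibitor of IL-2 family signalling, at 212 CPM against 62.8 CPM. Before restriction the ratios were 2.68 (2.54 to 2.82) for Nfkbia, 1.63 for Tnfaip3, 2.50 for Nfkbiz and 2.12 for Cish. Stat5b was lower, at 24.0 CPM (9.93, 23.0 and 51.0) against 419 CPM (378, 422 and 549.7), and Bcl2 was at 196 CPM against 546 CPM. Over all members and T cells they were 6.74-fold (5.46 to 8.41) and 3.25-fold lower. Socs3 turned its order: 113 CPM in the 262 against 76.7 CPM in all T cells, but 22.5 CPM in the 239 against 88.5 CPM in the 272. Of 16 genes 6 were at least 2-fold higher and 2 lower, with a median of 0.65, beside 14.9% and 10.0% over all genes. After restriction 10 were higher and 4 lower, beside 8.49% and 21.9%, so the share of lower genes was near that of all genes.

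Immediate early genes, which tissue digestion at 37 °C is known to raise, were also higher in the members. Fosb was at 1178 CPM in the 239 (471, 1078 and 1904) against 119 CPM in the 272 (58.9, 96.9 and 192), and Nr4a1 at 1203 CPM (1070.4, 1202 and 1467) against 232 CPM (94.8, 243 and 314), both without overlap. Without the restriction the ratios were 4.16 (3.76 to 4.60) for Fosb and 2.87 (2.63 to 3.14) for Nr4a1. Fos and Jun were at 1039 and 1155 CPM in the 262 but 512 and 457 CPM in the 239, against 324 and 219.9 CPM in the 272. Of 13 genes 7 were at least 2-fold higher in the 262 and none lower, beside 14.9% and 10.0% over all genes. After restriction 5 were higher and 2 lower, beside 8.49% and 21.9%. Against all other barcodes none of the 13 was at least 2-fold higher and 9 were lower, beside 13.5% and 23.5%. The part of digestion in the levels of Nfkbia, Nfkbiz, Tnfaip3 and Cxcl2, which respond to the same stimuli, was not tested.

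T cell receptor genes separated the sets, which a gate that bars Trac and limits Cd3 favours by its own construction. Cd247, the CD3ζ chain, was at 25.1 CPM in the 262 and 437 CPM in T cells, and the kinase Lck at 8.72 CPM against 223 CPM. Cd4 had 1 UMI, and Cd8a and Cd8b1 had none. Transcripts of the constant regions were not absent. Trbc2 was at 357 CPM in the 239 (224, 336 and 512) against 918 CPM in the 272 (765, 890.4 and 1042), and Trbc1 at 124 CPM (44.8, 126 and 155) against 676 CPM (337, 533 and 1059.6). Unrestricted, they were 3.26-fold and 6.26-fold lower. The reads of Trbc1 and Trbc2, which are near-identical copies, may be split between them by the counting. The γ chain constant gene Tcrg-C4 was at 53.9 CPM in the members and 43.3 CPM in T cells, whereas Trdc, of the δ chain, had 3 UMIs against 197 CPM. None of 19 genes of this list was at least 2-fold higher in the 262 and 16 were lower, beside 14.9% and 10.0% over all genes. The median log2 ratio was -4.17.

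NK and ILC3 genes were low. Nkg7, a granule gene, was at 29.2 CPM in the members, 357 CPM in T cells and 1838 CPM in NK cells. Gzmb had no UMI in the 262, and Klrb1c, the NK1.1 antigen, had 2. Of 10 genes of the NK and ILC1 list at 10 CPM or more, 9 were at least 2-fold lower than in T cells and 1 higher; after restriction all 10 were lower. Of 6 ILC3 and lymphoid tissue inducer genes, 5 were lower and none higher. Over all genes 10.0% were lower and 14.9% higher, and after restriction 21.9% and 8.49%. Ltb, a lymphotoxin that such cells make, was at 292 CPM in the members and 385 CPM in T cells.

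**Figure D3:**
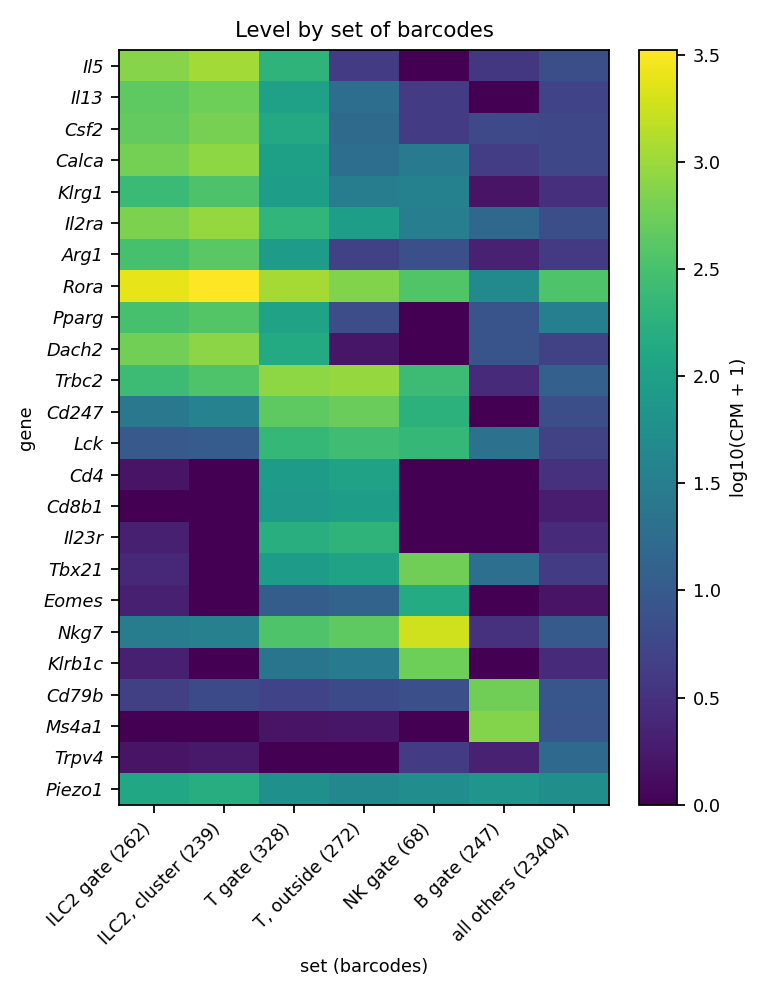
Levels as log10(CPM + 1) (colour) of 24 genes (rows) in 7 sets of barcodes (columns, with the number of barcodes). Il5, Il13, Csf2, Arg1 and Dach2 are bright in both ILC2 columns and dark in NK, B and all other barcodes, and the T gate column is darker once the 56 barcodes of the ILC2-like cluster are left out.

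The channel that the series is named for, Trpv4, had 1 UMI in the 262 and none in T cells, against 15.1 CPM in all other barcodes. The mechanically gated channel Piezo1 was at 156 CPM in the 239 (89.2, 154 and 183) and 43.6 CPM in the 272 (0, 47.0 and 90.1), and the ranges of the 2 sets overlapped. The ratio was 2.15 (1.71 to 2.71) over all members and T cells and 3.57 (2.70 to 4.77) after restriction. Piezo2 was at 131 CPM in the 262 but had 1 UMI in the 239, so that its level came from the 23 members outside the cluster, and the log2 ratio of 3.51 was 2.46 without suffix 1 and 7.79 without suffix 3. Trpv2 was at 23.1 CPM in the members and 54.3 CPM in T cells. Of 6 channels at 10 CPM or more, 3 were at least 2-fold higher and 1 lower, beside 14.9% and 10.0% over all genes. After restriction 1 of 5 was higher and 2 were lower, beside 8.49% and 21.9%.

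Cell cycle genes at least 2-fold apart were lower in the members. Mki67 was at 32.8 CPM in the 262 and 73.6 CPM in T cells, and Top2a at 28.2 CPM and 93.4 CPM. The log2 ratio of Mki67 was -1.16, but -0.38 without suffix 4, -2.01 without suffix 1 and 0.06 with each barcode weighted equally; that of Top2a was -1.73, or -2.35 without suffix 1. Mki67 was found in 2.93% of the 239 and 3.68% of the 272. None of 8 genes was at least 2-fold higher and 5 were lower, beside 14.9% and 10.0% over all genes. The median log2 ratio was -1.10.

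Markers of macrophages, dendritic cells, fibroblasts, and endothelial and mural cells were higher in the 23 members outside the cluster than in the 239, and those of B cells and of mast cells and basophils were not. The sums were 779 against 152 CPM for macrophages, 3082 against 331 CPM for dendritic cells, 1641 against 655 CPM for fibroblasts and 2437 against 216 CPM for endothelial and mural cells. For B cells they were 16.3 against 59.1 CPM, and for mast cells and basophils 42.4 against 59.9 CPM. The sum of 8 macrophage genes was 349 CPM in the 262 (suffixes 82.0, 208 and 617), 152 CPM in the 239 and 124 CPM in T cells. That of 9 endothelial and mural genes was 915 CPM (112, 263 and 2761), 216 CPM in the 239 and 514 CPM in T cells, with Rgs5 at 0 in the 239. Dendritic markers were at 1197 CPM (168, 443 and 5025) and 331 CPM, with Itgax and Xcr1 at 0 in the 239. The 7 B cell markers summed to 45.7 CPM (23.6, 35.0 and 105), with Ms4a1, Ighd, Iglc2 and Pax5 among those at 0 in the 239, and the 9 of mast cells and basophils to 54.4 CPM (24.2, 54.5 and 104), with Ms4a2, Fcer1a and Mcpt8 at 0. The 8 fibroblast genes summed to 965 CPM (590.4, 729.5 and 1746) in the members, 677 CPM in B cells and 25727 CPM in all others. By list, against T cells, 2 of 5 macrophage genes at 10 CPM or more, 3 of 4 dendritic, 6 of 8 endothelial and mural, and none of 3 mast cell, 1 B cell and 7 fibroblast genes were at least 2-fold higher in the 262; after restriction none of these was, apart from 1 mast cell and basophil gene. The part of such RNA in single genes of the 262 was not tested. Over all genes, 14.9% were at least 2-fold higher than in T cells, and 8.49% after restriction.

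The genes with the largest ratios of members over T cells depended on those 23 barcodes. By size of ratio among genes at 50 CPM or more, the 20 leading genes of the 262 against the 328 included the epithelial genes Ltf, Wfdc18, Cldn4, Cldn3 and Krt8. In all 20, at least 97.9% of the UMIs came from the 23. Krt8, an epithelial keratin, was at 589.9 CPM in the 262, 1.50 CPM in the 239 and 26.1 CPM in T cells. Without suffix 3 the log2 ratio was 7.68 in place of 5.70 for Cldn4, 6.52 in place of 5.04 for Cldn3 and 5.57 in place of 7.58 for Ltf; that of Wfdc18 was 6.94, or 8.18 without suffix 2. The 20 leading genes after restriction shared none with that list.

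The restricted list opened with Dach2, a nuclear factor of the dachshund family, at 809 CPM in the 239 (X chromosome, chrX:113297510-113836386, plus strand) against 1 UMI in the 272. Its interval, 762 to 859 CPM, rests on 1081 UMIs, and 77.4% of the 239 had at least 1 Dach2 UMI against 0.810% of B cells, at median depths of 5307 and 5077 UMIs. Ctnna2, an α-catenin best known from neurons, followed at 319 CPM against 1 UMI, with a log2 ratio over all members and T cells of 1.46, or 2.09 without suffix 3. The neuronal genes Kcnd2, a potassium channel, and Cntn1, a contactin, were at 308 CPM against 1.92 CPM and 160.2 CPM against 1.92 CPM. Hs3st1, a heparan sulfate sulfotransferase, was at 794 CPM against 10.3 CPM, and Klf5 at 78.6 CPM against 0.641 CPM. The list also held Il5, Ccl1, Alox5, Slc7a8, Arg1 and Pparg, described above, and Amph, Eepd1, Runx1t1, Zc3h12c, Ccdc184, Arhgef10l, Nrgn and 1700113H08Rik.

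Genes that led in T cells over the members included several of the T cell surface. Cd5 had 1 UMI in the 262 against 153 CPM in T cells, and Cd6 had 2 against 116 CPM. Cd163l1, a gene of γδ T cells, and Cd40lg, the ligand of CD40, had no UMI in the members against 189 CPM and 101 CPM. Slamf1, Ms4a4b, Fgf13, Cxcr3, Sh2d1a, Klrd1, Gm8369, Cd4, Trdc, Il23r and Il12rb2 completed the 15, and 9 of them were in the restricted list as well.

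Against all 23404 other barcodes the members were led by Ccr8, at 92.8 CPM against 0.456 CPM, a ratio of 204 (159 to 261). 1700113H08Rik followed with 150.3 and Dach2 with 149.9 (137 to 164), and Il5 with 125 (116 to 135), Calca with 123 (114 to 134) and Klrg1 with 123 (108 to 140.0). Il2ra, Il13, Arg1 and Csf2 had ratios of 109.7, 108, 106 and 99.7. The list also held, among others, Igsf5, Pcsk1 (a prohormone convertase), Ctnna2, Ccl1, Cntn1, Stab2, Ccr4, Cxcr6 and Ccdc184. Unlike the list against T cells, 19 of these 20 genes remained after restriction to the 239. Pcsk1 was at 68.7 CPM in the 262 against 0.617 CPM in the others. In this comparison 13.5% of 10086 genes at 10 CPM or more were at least 2-fold higher and 23.5% at least 2-fold lower, with a median log2 ratio of -0.12. Of the secreted products 10 of 20 were higher and 5 lower, of the costimulatory and inhibitory receptors 12 of 14 were higher and none lower, and of the migration genes 15 of 21 were higher and 3 lower.

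NK cells, the other innate lymphocytes in the tissue, differed most in their own genes. Gating NK cells on Ncr1 and barring it from the members favours such a difference by construction. All 12 NK and ILC1 genes were at least 2-fold lower in the members, with a median log2 ratio of -7.77, where 17.3% of 9385 genes were that much lower and 16.2% higher. For the 239 against NK cells the count was also 12, with 26.9% of 8619 genes lower and 10.4% higher. Il5, Dach2 and Pparg had no UMI in the 68 NK cells, whose 325870 UMIs allow up to 9.21 CPM, and Il13 and Csf2 had 1 each. Of 17 receptors for lipid mediators and neuropeptides, 13 were at least 2-fold higher in the members and 1 lower. Rora was at 368 CPM and Id2 at 479 CPM in NK cells.

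The members differed among themselves in which cytokines they held. Among the 239, 60.7% had at least 1 Il5 UMI, 60.7% Csf2, 46.0% Calca, 32.6% Il13, 22.2% Ccl1 and 16.7% Il4. In B cells, which should lack these genes and whose median depth of 5077 UMIs is close to the 5307 of the 239, Il5 was found in 0.810%, Csf2 and Calca in 0.405%, Il13 and Ccl1 in none and Il4 in 0.810%. Thinned to 1000 UMIs per barcode, which left out 1 of the 239, Il5 was found in 37.8% of the members, in none of 271 T cells outside the cluster and in none of the B cells. Il13 was found in 21.0% at that depth. Other genes were found in more of the barcodes: Il2ra was found in 93.7%, Klrg1 in 76.6%, Arg1 in 70.7% and Rora in all 239.

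High expression was concentrated in few barcodes. Il5 had 0 UMIs in 94 of the 239, 1 in 26, between 2 and 9 in 74, and 10 or more in 45, with a maximum of 65. Il13 had 0 in 161 and 10 or more in 24. The 10 barcodes with the most UMIs held 28.4% of the Il5 UMIs, 48.9% of Il13, 61.7% of Il4 and 67.6% of Ccl1, against 10.1% of Rora and 15.7% of Klrg1. These cytokine genes were therefore spread less evenly over the members than Rora or Klrg1. Others fell between: Csf2 was at 24.9%, Arg1, which is no cytokine gene, at 24.8%, and Il2ra at 16.4%. An uneven spread was thus not particular to cytokine genes. These shares describe these barcodes and were not tested.

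Of Il5, Il13, Csf2 and Il4, 35 of the 239 barcodes (14.6%) had none, 64 (26.8%) had 1, 84 (35.1%) had 2, 48 (20.1%) had 3 and 8 (3.35%) had all 4. Il13 was found in 38.6% of the barcodes with Il5 and 23.4% of those without. Csf2 was found in 69.0% of those with Il5 and 47.9% of those without. Barcodes with Il5 were also deeper, with a median of 5576 UMIs against 4865, and the part of depth in these shares was not tested.

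**Figure D4:**
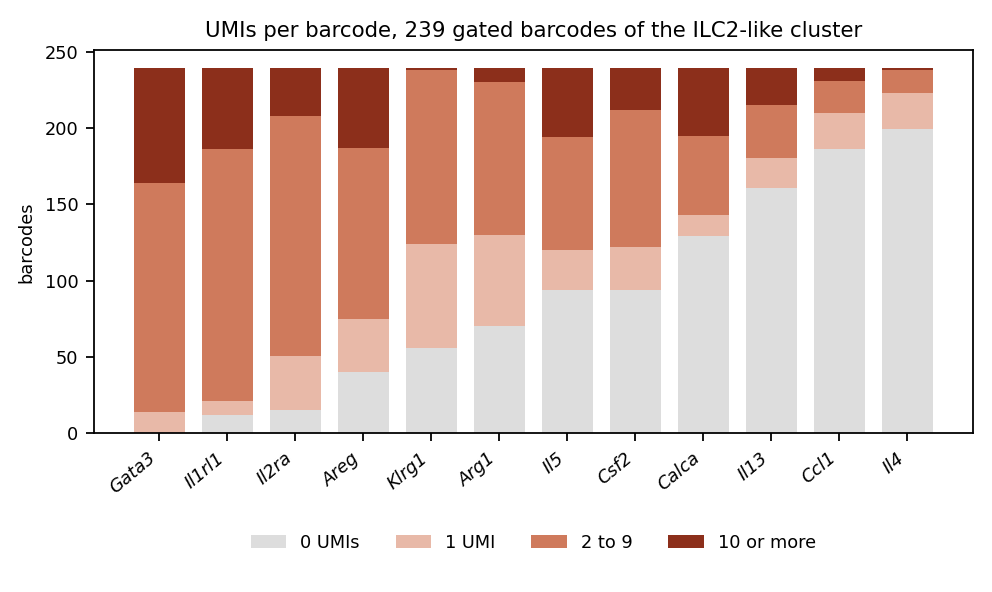
Number of the 239 members in the ILC2-like cluster (y) with 0, 1, 2 to 9, or 10 or more UMIs (shades) of each of 12 genes (x). The bars pass from Gata3, present in all by the gate, to Il4, which had no UMI in 199.

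Across the 8 suffixes the members numbered between 15 and 46 (median 35.0), or 0.461% to 1.93% of filtered barcodes (median 1.29%). Suffixes 1 to 4 held 1.28% to 1.93% and suffixes 5 to 8 held 0.461% to 1.31%. T-gated barcodes numbered between 13 and 89, and the ratio of members to T cells ran from 0.416 to 1.46. No barcode sequence recurred within suffixes 1 to 4 or within 5 to 8. Across the 2 sets of suffixes 44 recurred, none of them a member's. All 8 members of the keratin-led cluster came from suffixes 1 to 4.

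**Figure D5:**
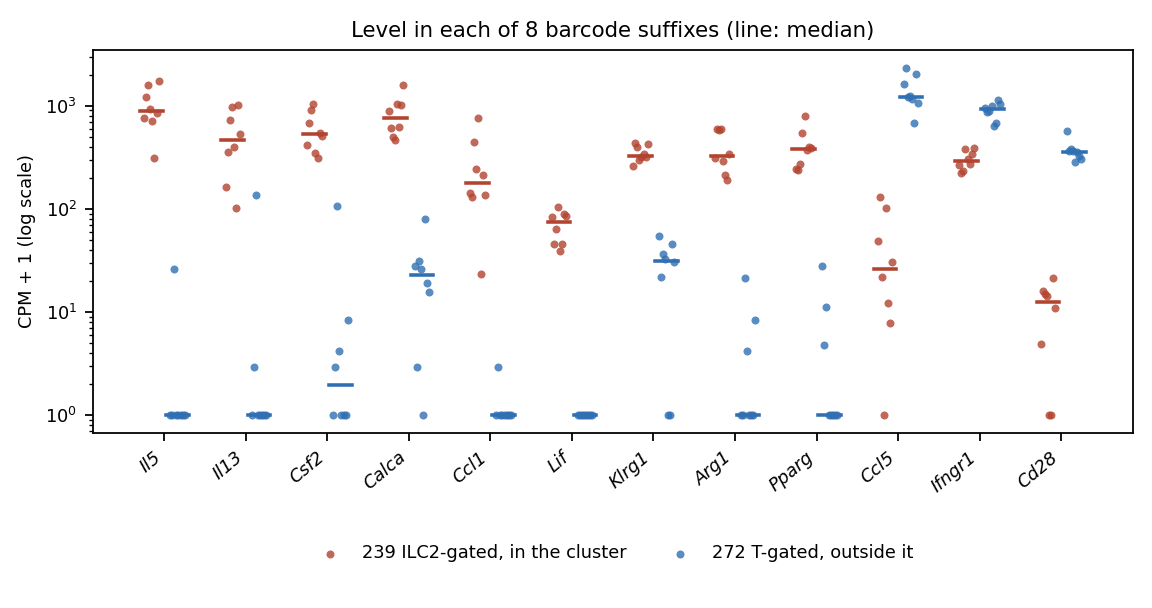
CPM + 1 (y, log scale) of 12 genes (x) in each of the 8 barcode suffixes (points) with the median (line), in red for the 239 members and blue for the 272 T cells. Il5 in the members lies between 314 and 1733 CPM in every suffix, and all but 1 of the T cell suffixes have no Il5 UMI. The 272 include only 8 barcodes of suffix 5 and 9 of suffix 6, so a level of 0 there rests on few barcodes.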

How the data were processed

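Single-cell RNA was counted by the authors with Cell Ranger 7.1.0 against mm10, per the file headers and the submitters' processing notes, which also name Seurat 4.3.0.1. No source names the annotation they counted on. The deposited values are raw UMI counts for 32285 genes and 12 multiplexing tags in 24046 barcodes, holding 232753017 gene UMIs (23828933 to 32467001 per suffix). Of these barcodes 380 failed the filter.

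UMIs were summed over each set of barcodes and scaled to its total. Levels carry exact Poisson, ratios exact conditional binomial and shares Clopper-Pearson 95% intervals, which cover counting error only. A gene counted as higher or lower at 2-fold or more with at least 10 CPM in the higher set; 3 UMIs was the floor for a set at 0. Shares were also computed after thinning to 1000 UMIs. Clustering (scanpy 1.11.5, leidenalg 0.10.2) used 2000 variable genes, 30 components, 15 neighbours and resolution 1.0; 719 barcodes (3.04%) were called doublets and kept. The computations ran in Python 3.11.15 with numpy 2.4.6, scipy 1.17.1 and pandas 2.3.3. The intervals and 2-fold calls were tested on simulated independent Poisson counts, which lack the uneven spread over barcodes given above.

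The members and the 20 gene lists were chosen with earlier results of these data known. Genes named were list members at 20 CPM or more in members or T cells, the type 2 cytokines, Tbx21, Eomes, Foxp3 and Trpv4 at any level, and, at 50 CPM or more, the 20 leading genes over T cells or others and the 15 leading genes of T cells. Other names were added after their values were seen. Some genes that meet this rule are not reported here. Alternatives covered the gate, a T cell reference also holding Trac, the filter, doublets, weighting, scaling, minimum level, fold, thinning and each suffix left out.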

Additional observations from a re-analysis of the deposited data

How the results depend on the processing

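The number of members was 542 with Gata3 not required and a sum of at least 3, and 403 by the graph cluster alone. The genes at least 2-fold higher than in T cells numbered 1375 and those lower 926. Restricted to either side of the cluster, an alternative chosen after seeing the data, they were 739 and 1901. The balance also turned with each barcode weighted equally (813 higher, 1187 lower) and without the keratin-led cluster, likewise chosen after seeing the data (962 and 1175). Against T cells also required to hold Trac they were 1559 and 1304, and 65 of 120 single-gene ratios moved beyond their counting interval: the log2 ratio was 4.75 for Arg1, 6.65 for Alox5 and 5.59 for Csf2. Without a minimum above 3 UMIs the counts were 2529 and 1692, at 50 CPM 448 and 318, and at 4-fold 601 and 298. Leaving out each suffix in turn gave 216 to 247 members, 1221 to 1435 genes higher and 925 to 1058 lower than in T cells, and 1304 to 1416 higher and 2294 to 2545 lower than in all others. Of 967 single-gene ratios over T cells with a suffix left out, 5 turned sign, for Il4 and Ramp1, both under 2-fold apart, and 48 moved by over 1.5 times.

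Of named genes at least 2-fold apart from T cells, 5 turned the sign of the log2 ratio. After restriction it was -1.19 for Cldn3, -2.36 for Cldn4, -4.39 for Krt8 and -4.24 for Piezo2. Without the 8 members of the keratin-led cluster it was -1.14 for Cldn3, -2.31 for Cldn4, -4.37 for Krt8 and -4.19 for Piezo2. Both settings leave out the barcodes that held those UMIs. Mki67 was 0.06 with each barcode weighted equally, and the cause was not tested. Of genes under 2-fold apart, Socs3 (0.56) was -1.98 after restriction, Ltb (-0.40) was 0.09, and Ramp1 (-0.04) was 0.32. The log2 of the scaling factor by trimmed means of log ratios was -0.01. No paired analysis by mouse was possible because the results come from no test and no label ties a suffix to a mouse. Depth limits the low genes: 3 UMIs correspond to 1.54 CPM in the 262 members, 1.57 CPM in T cells and 9.21 CPM in NK cells.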

Other observations

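The ILC2-like cluster was wider than the gate. Of its 403 barcodes 164 were not members: 56 were T-gated and 108 were neither. Of the 108, 38 held Cpa3, 34 had no Ptprc UMI and 18 had no Gata3 UMI. The gate's share of 1.11% is therefore lower than the cluster's share of 1.70% of filtered barcodes.

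Calca and the prohormone convertase Pcsk1 were both among the leading genes over all other barcodes. Pcsk1 was found in 35.5% of the 110 barcodes with Calca and 27.1% of the 129 without, at median depths of 5346.5 and 5297 UMIs.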
